A study of Mus musculus with 5 samples.

Results

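The Notch receptor genes Notch1 and Notch3, the fringe gene Mfng, the Hes family gene Hes6 and the Id family gene Id3 were followed in the mouse cerebellum at embryonic day 18 (E18) and at P7, P14, P21 and P56, where P stands for the postnatal day. They were taken as the probes whose only gene symbol is 1 of these 5, which gave 6 of the 897 probes of the array table: 1 each for Notch1, Notch3, Mfng and Id3, and 2 for Hes6, called probe 212 and probe 276 here. The genes were chosen on their P56 against E18 values and their course over the ages, so these values are given as a description. Each age is 1 sample of total RNA from cerebellum with 1 column of values, which the labels describe as a mean over 2 array experiments. No strain, genotype, sex or treatment is given for any age in the sources used here, nor whether animals were pooled. The labels give as the purpose a better understanding of the genetics of cerebellar development. With 1 column per age there is no replicate check and no p-value, and the number of arrays limits the precision.

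Notch receptors are single-pass membrane proteins that are cleaved when a Delta or Jagged ligand on a neighbouring cell binds them. The freed intracellular domain enters the nucleus, joins the DNA-binding protein RBPJ and switches on genes such as those of the Hes and Hey repressors, which hold cells in a progenitor state. Id proteins lack a DNA-binding region and take E proteins away from proneural transcription factors, and BMP signalling is known to induce their genes. In the developing cerebellum Notch signalling is known from progenitors and from radial and Bergmann glia.

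The values were read as the percent that each age reaches of the probe's maximum, averaged over the 2 experiments. Ages can therefore be compared within a probe, but levels cannot be ranked between genes. All 5 genes have Entrez identifiers that the RefSeq mouse gene table holds under the same symbol, on chromosome 2 for Notch1 (18128), 17 for Notch3 (18131), 15 for Mfng (17305), 1 for Hes6 (55927) and 4 for Id3 (15903).

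The promoters of members that move together were looked at next. RefSeq windows of GRCm38.p6, 250 bases before to 50 after a start site, were at hand for 4 of the 5 genes, with 2 start sites for Hes6. Both strands were searched for GTGGGAA (bound by RBPJ), CACGNG (bound by Hes proteins), CANNTG (the E-box of proneural factors and E proteins) and GGCGCC (a GC-rich Smad element). CACGNG and CANNTG share the sequence CACGTG, which none of the windows below holds. The 3 windows with a match are shown from 5′ to 3′ on the gene's strand, because they are the stretches in which these letters occur, with matches to CANNTG and CACGNG in capitals. The Hes6 windows lie on the minus strand at chr1:91413989-91414288 (start site 1) and chr1:91413173-91413472 (start site 2), and that of Notch3 on the minus strand at chr17:32166841-32167140.
Hes6, start site 1: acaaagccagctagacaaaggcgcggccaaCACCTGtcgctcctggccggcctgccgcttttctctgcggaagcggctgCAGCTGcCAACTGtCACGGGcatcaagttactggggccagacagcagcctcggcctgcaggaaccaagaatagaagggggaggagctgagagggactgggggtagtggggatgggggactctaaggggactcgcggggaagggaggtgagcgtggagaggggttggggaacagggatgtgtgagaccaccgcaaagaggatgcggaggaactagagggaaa
Hes6, start site 2: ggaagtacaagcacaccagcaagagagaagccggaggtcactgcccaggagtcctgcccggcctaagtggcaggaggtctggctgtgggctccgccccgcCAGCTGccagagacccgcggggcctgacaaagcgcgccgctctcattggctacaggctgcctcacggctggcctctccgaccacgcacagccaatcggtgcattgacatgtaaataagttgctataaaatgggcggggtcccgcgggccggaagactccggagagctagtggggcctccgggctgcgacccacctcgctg
Notch3: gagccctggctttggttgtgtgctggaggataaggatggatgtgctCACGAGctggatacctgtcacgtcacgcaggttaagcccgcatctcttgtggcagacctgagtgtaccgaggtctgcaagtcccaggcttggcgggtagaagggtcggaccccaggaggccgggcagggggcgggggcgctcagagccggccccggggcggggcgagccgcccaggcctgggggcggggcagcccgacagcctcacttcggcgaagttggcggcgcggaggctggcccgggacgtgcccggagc
In Hes6 start site 1 the capitals mark 3 E-boxes and, as the last of the 4 runs, 1 CACGNG match, all upstream of the start. At least 3 CANNTG matches occur in 17.6% of all 32851 mouse promoter windows of this length. Hes6 start site 2 holds 1 E-box, and the Notch3 window 1 CACGNG match. In all windows CANNTG is found in 72.3%, CACGNG in 27.5%, GGCGCC in 11.9% and GTGGGAA in 6.38%. None of the 5 windows held GTGGGAA or GGCGCC, and those of Notch1 (chr2:26503773-26504072, minus strand) and Id3 (chr4:136143572-136143871, plus strand) held none of the 4 motifs. A match is a string of letters and not a shown binding site, and the absence of one says only that these letters are not in this window.

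The 5 genes were highest at E18, remained above 50% at P7, and were below 50% at P14, P21 and P56 on all 6 probes. That course is shared by 30.4% of all probes, and 34.9% are highest at E18. All 6 probes fell by 2-fold or more at P56 against E18, from 2.96-fold for Mfng to 8.69-fold for Notch1. In the table as a whole 52.5% of the probes were 2-fold or more lower at P56 than at E18 and 22.6% higher, so falling is common here, and nothing is read from the members' count since they were chosen with these values known. The median difference was -2.30 (log2 of P56 over E18) over the 6 probes and -1.07 over all 897. Against P7 as well, all 6 probes were 2-fold or more lower at P56, from 2.46-fold for Mfng to 6.80-fold for Notch1, in a table where 52.3% were lower and 18.8% higher. In tissue RNA, fewer cells of a type and less RNA per cell cannot be told apart.

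**Figure D1:**
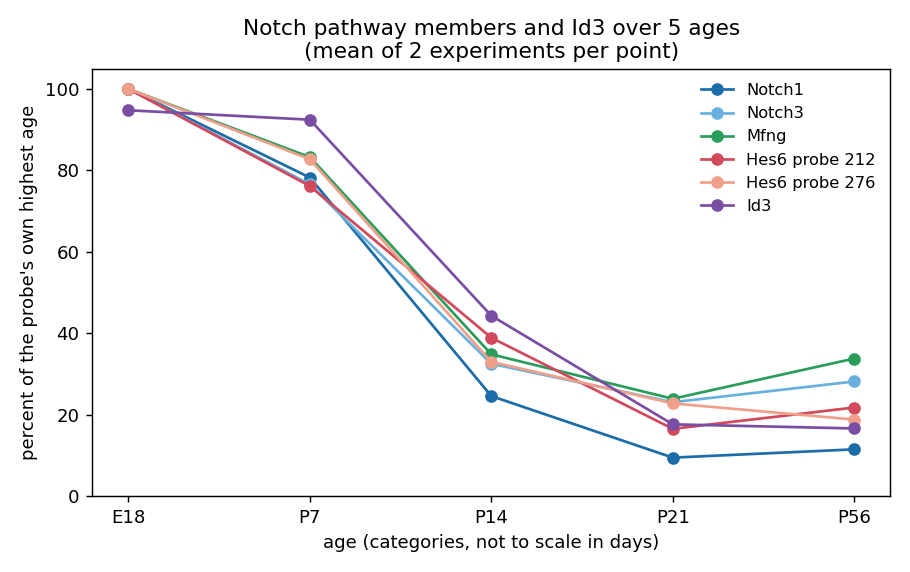
Values of the 6 probes, in percent of the probe maximum (vertical axis), at the 5 ages (horizontal axis, ages as categories). Each point is the deposited mean of 2 experiments; the probes lie between 76.14% and 92.44% at P7 and between 24.59% and 44.31% at P14, and Notch1 is the lowest at P14, P21 and P56.

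Of the receptors, Notch1 stood at 100% at E18, 78.23% at P7, 24.59% at P14, 9.48% at P21 and 11.51% at P56. Its lowest age was P21, 10.5-fold below E18. Its P56 value was 8.69-fold lower than at E18, a difference of -3.12 (log2), and 6.24% of the 897 probes fell by more. Notch3, which is known for its role in the smooth muscle cells and pericytes of vessels, stood at 100% at E18, 76.55% at P7, 32.52% at P14, 23.08% at P21 and 28.17% at P56. It was 3.55-fold lower at P56 than at E18 (-1.83, log2), and 19.7% of all probes fell by more. Both receptors thus had the same order of ages, and Notch1 kept the smaller share of its E18 value: 11.5% at P56, against 28.2% for Notch3.

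The error between the 2 experiments is not known here, but the scale sets limits on it. If each experiment lies between 0 and 100, a mean of exactly 100% at E18, as on 5 of the 6 probes, means that both experiments were at 100%, and neither experiment can exceed 2 times a later mean. Under that reading the fall at P56 against E18 was at least 4.34-fold in each experiment for Notch1, and at least 1.77-fold for Notch3. At P21 a single experiment could have reached 18.96% for Notch1 and 46.16% for Notch3, so these limits overlap and do not separate the receptors at that age.

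Mfng encodes manic fringe, a glycosyltransferase that lengthens the sugars on Notch receptors and so changes which ligands they answer to. It stood at 100% at E18, 83.25% at P7, 34.84% at P14, 23.93% at P21 and 33.80% at P56. Its P56 value was 2.96-fold lower than at E18 (-1.56, log2), the smallest fall of the 6 probes, and at least 1.48-fold lower in each experiment under the reading above. Mfng also had the largest difference of the 6 probes between P56 and P21, 9.87 points or 1.41-fold higher at P56, which is short of 2-fold.

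Hes6 encodes a Hes family protein that is known to oppose Hes1 and to favour neuronal differentiation. Probe 212 stood at 100% at E18, 76.14% at P7, 38.91% at P14, 16.55% at P21 and 21.78% at P56. Probe 276 stood at 100% at E18, 82.73% at P7, 33.00% at P14, 22.79% at P21 and 18.82% at P56. Both probes were highest at E18 and fell, by 4.59-fold on probe 212 and 5.31-fold on probe 276 at P56 against E18, at least 2.30-fold and 2.66-fold in each experiment. They were apart by at most 6.59 points, at P7. They disagreed on the lowest age. Probe 212 was lowest at P21 and 1.32-fold higher at P56 than at P21, whereas probe 276 was lowest at P56, 1.21-fold below P21. They also differed in the step that passed 2-fold. On probe 212 it was P21 against P14 (2.35-fold) and not P14 against P7 (1.96-fold). On probe 276 it was P14 against P7 (2.51-fold) and not P21 against P14 (1.45-fold). Both probes were read from the same columns, so this spread leaves out variation between arrays and animals.

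Id3 encodes an inhibitor of E proteins and is known as a target of BMP signalling. It stood at 94.76% at E18, 92.44% at P7, 44.31% at P14, 17.65% at P21 and 16.64% at P56. It was the only one of the 6 probes under 100% at E18, so under that reading the 2 experiments did not both have their highest value at that age. Its E18 and P7 values differed by 2.32 points, and the higher of the 2 ages was P7 with quantile normalization of the columns. At P56 it was 5.69-fold lower than at E18 (-2.51, log2), and at least 2.69-fold lower in each experiment under the same reading.

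**Figure D2:**
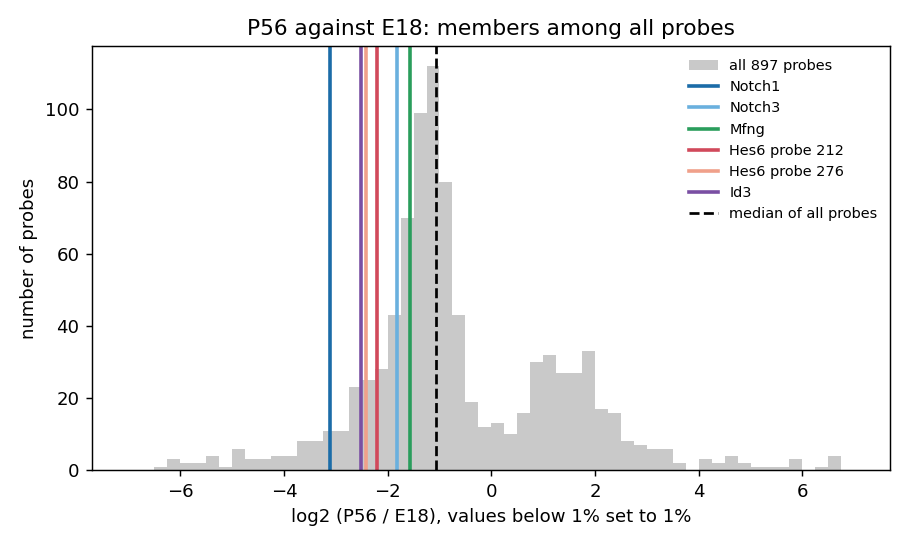
Number of probes (vertical axis) by the difference between P56 and E18 in log2 (horizontal axis), for all 897 probes in grey, with a coloured line at each of the 6 probes and a dashed line at the median of all probes, -1.07. The 6 lines lie between -3.12 for Notch1 and -1.56 for Mfng, all left of the median.

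How far these falls reach past the rest of the table depends on the scale between columns. Dividing each column by its median moves the median difference of all probes by 1.01 (log2). Relative to the median probe, P56 against E18 was -2.05 for Notch1, -1.44 for Id3, -1.34 and -1.13 for Hes6 probes 276 and 212, -0.76 for Notch3 and -0.49 for Mfng. With columns scaled to equal medians 4 of the 6 probes were still 2-fold or more lower, in a table where 16.4% were lower and 30.3% higher, and Notch3 (-0.82) and Mfng (-0.56) were not. With quantile normalization 5 of the 6 were, in a table where 23% were lower and 27.4% higher, and Mfng (-0.97) was just short of 2-fold.

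In percent points, the largest step of each of the 6 probes lay between P7 and P14. On the log2 scale this held for Notch1, Notch3, Mfng and Hes6 probe 276, while Id3 (-1.33 at P21 against P14, -1.06 at P14 against P7) and Hes6 probe 212 (-1.23 at P21 against P14, -0.97 at P14 against P7) had the larger difference one step later. At P7 against E18 none of the 6 probes differed by 2-fold, in a table where 2.79% of the probes were lower and 5.8% higher. Hes6 probe 212 (23.86 points), Notch3 (23.45 points) and Notch1 (21.77 points) were furthest below their E18 value, and Id3 the least.

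At P14 against P7, 5 of the 6 probes fell by 2-fold or more, in a table where 24.7% did and 14.4% were higher: Notch1 by 3.18-fold, Hes6 probe 276 by 2.51-fold, Mfng by 2.39-fold, Notch3 by 2.35-fold and Id3 by 2.09-fold. Hes6 probe 212 was 1.96-fold lower and just short. This step held between 44.6% (Hes6 probe 212) and 63.6% (Mfng) of each probe's whole distance from E18 to its lowest age. The difference exceeded 50 points for Notch1 alone, at 53.64 points, so under the reading above both experiments had to move the same way for that probe, by at least 1.15-fold each. With columns scaled to equal medians 1 of the 6 fell by 2-fold, Notch1, and with quantile normalization 2, Notch1 and Hes6 probe 276. The share of all probes under these 2 scalings was not computed for this step, so nothing is read from these counts.

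At P21 against P14, 3 of the 6 probes fell by 2-fold or more, in a table where 13.2% did and 3.23% were 2-fold or more higher. They were Notch1 (2.59-fold), Id3 (2.51-fold) and Hes6 probe 212 (2.35-fold), while Mfng was 1.46-fold, Hes6 probe 276 1.45-fold and Notch3 1.41-fold lower. Id3 had 34.1% of its whole distance in this step, against 12.3% for Notch3. With columns scaled to equal medians or with quantile normalization, none of the 6 passed 2-fold in this step. None did with values under the 25th percentile of the table (35.8%) raised to it. With the 10th percentile (20.4%) as the lowest value, Id3 alone did. The share of all probes under these settings was not computed for this step.

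At P56 against P21 none of the 6 probes differed by 2-fold, in a table where 2.23% were lower and 2.68% higher. Mfng (33.80% at P56, 23.93% at P21), Notch3 (28.17% at P56, 23.08% at P21), Hes6 probe 212 (21.78% at P56, 16.55% at P21) and Notch1 (11.51% at P56, 9.48% at P21) stood higher at P56. Hes6 probe 276 and Id3 stood lower. Of all probes 52.1% were higher at P56 than at P21, so no trend is read from these differences. The steps share columns, P7, P14 and P21 each serving 2 of them, and their values are therefore not independent of each other.

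The likeness of 2 profiles was measured as the root mean square (RMS) difference of their log2 percent values over the 5 ages. The closest members were Notch3 and Mfng, with an RMS difference of 0.139, and next came Hes6 probe 212 and Id3 with 0.236. The 2 Hes6 probes were 0.256 apart. For the 14 genes of the table with 2 probes the median was 0.319, between 0.0811 and 1.31, and Hes6 had rank 4 counted from the smallest. The 14 pairs of probes of different members had a median of 0.415, above that of 2 probes of 1 gene, and 5 of them lay under 0.319. Among these 5, Hes6 with Id3 and Hes6 with Notch3 are each counted on both Hes6 probes. The share of all pairs of probes under 0.319 was not computed. The members were proposed for their common fall, so nothing is read from this count. Notch1 stood furthest from the others: it was 0.834 from Notch3 and 0.945 from Mfng, and 12 of the 14 genes with 2 probes had a smaller distance between their probes than Notch1 from Notch3. The median over all pairs of probes was 1.01.

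**Figure D3:**
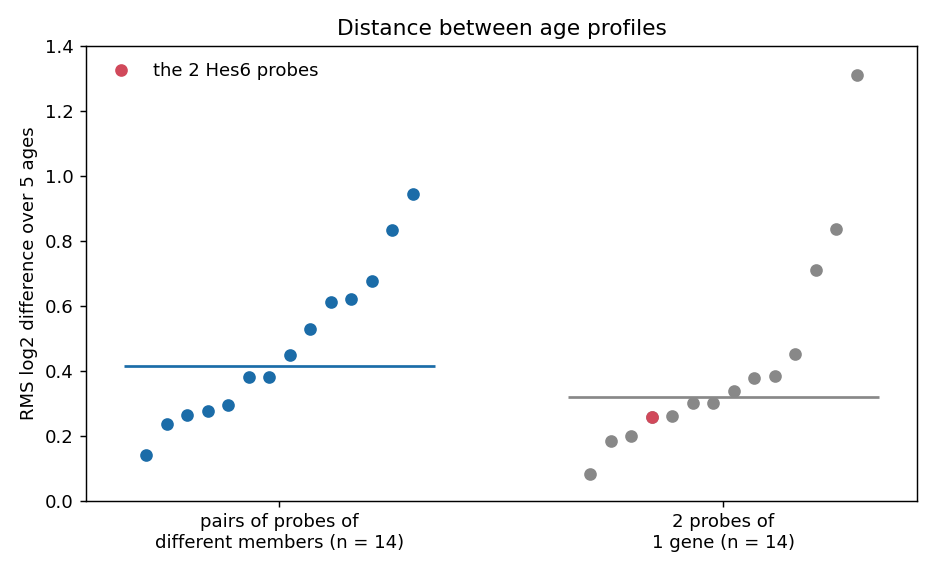
RMS difference in log2 percent over the 5 ages (vertical axis) for the 14 pairs of probes of different members, on the left, and for the 14 genes with 2 probes, on the right. Points are pairs sorted by size, and lines are medians (0.415 on the left and 0.319 on the right). The red point is the pair of Hes6 probes at 0.256. The closest members, Notch3 and Mfng, lie at 0.139 and the furthest, Notch1 and Mfng, at 0.945.

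The probes of other genes with the most similar course were named by a fixed number of 5 per member probe. For Notch1 these were Dctpp1 (RMS difference 0.2), which encodes an enzyme that breaks down dCTP, Acot1 (0.231), Mcm7 (0.24), a subunit gene of the replicative helicase, Aurka (0.247), a mitotic kinase gene, and Tspan6 (0.255). Notch3 was closest to Nap1l1 (0.0702), a nucleosome assembly gene, then to Mfng (0.139), Selenoh (0.14), 1 of the 2 probes of the cyclin D1 gene Ccnd1 (0.152), and the transcription factor gene Pax3 (0.16). Mfng was closest to Notch3 (0.139), Nap1l1 (0.141), Anp32b (0.152), Ranbp1 (0.154) and Pax3 (0.155). Notch3 and Mfng thus share Nap1l1 and Pax3 as neighbours.

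Hes6 probe 212 was closest to Psme1 (0.0691), which encodes a subunit of a proteasome activator, Maged2 (0.143), Traf4 (0.184), Zfp90 (0.186) and Fstl1 (0.19). Probe 276 was closest to Hnrnpab (0.12), Id1 (0.143), Maged2 (0.146), the splicing gene Snrpg (0.164) and Ezr (0.168). Maged2 is the only gene in both Hes6 lists. For Id3 the closest were Apex1 (0.0814), a DNA repair endonuclease gene, the amino acid transporter gene Slc1a4 (0.139), Snrpg (0.171), Tax1bp3 (0.173) and the linker histone gene H1f10 (0.206). With percent values in place of log2 values 19 of these 30 places went to the same probes, and with P21 left out 11 did, so single neighbours depend on the measure.

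Other genes of the pathway came from a list of 60 Notch pathway genes, of which 7 have a probe with 1 symbol: the 4 Notch pathway members, Tle1, Numb and Fbxw7. At P56 against E18, 5 of the 7 fell and 2 rose by 2-fold or more, with a median of -1.83 (log2), in a table where 52.8% of the 773 named genes fell and 22.0% rose with a median of -1.07. With columns scaled to equal medians 3 of the 7 fell (Notch1, Hes6 and Tle1) and 2 rose, where 16.4% of all probes fell and 30.3% rose. The list includes the 4 members, which were chosen with these values known, so the 3 others are given on their own. No probe with 1 symbol was found here for a Delta or Jagged ligand, for Notch2 or Notch4, for Rbpj or for another Hes or Hey gene.

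Tle1, which encodes a Groucho corepressor that Hes proteins recruit, was lower at the later ages, as the members were. It stood at 100% at E18, 77.46% at P7, 19.54% at P14, 21.31% at P21 and 16.79% at P56. It fell 5.96-fold at P56 against E18, and 3.96-fold at P14 against P7. Unlike Notch1 it did not decrease between P14 and P21.

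Numb and Fbxw7 ran the other way, and both are known as negative regulators of Notch. Numb, which encodes an adaptor protein that inhibits Notch, stood at 31.34% at E18, 57.97% at P7, 86.13% at P14, 84.74% at P21 and 84.23% at P56, and it rose 2.69-fold at P56 against E18. Fbxw7, which encodes the ubiquitin ligase subunit that marks the Notch intracellular domain and several other proteins for degradation, stood at 36.68% at E18, 62.00% at P7, 99.77% at P14, 99.42% at P21 and 78.40% at P56, and it rose 2.14-fold. Both were lowest at E18, the age at which all 6 member probes were highest. The share of all probes lowest at E18 was not computed, and 22.6% of all probes were 2-fold or more higher at P56 than at E18. The members were chosen on their course over the ages, so nothing is read from this contrast. Both also passed 2-fold with quantile normalization, where 27.4% of all probes were 2-fold or more higher. They passed with columns scaled to equal medians too, where 30.3% were higher. Scaling to equal medians raises every P56 against E18 difference by 1.009 (log2), so a rise past 2-fold could not fail under it. Quantile normalization moved the median difference of all probes by 0.851 (log2) in the same direction, so passing under it adds little.

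**Figure D4:**
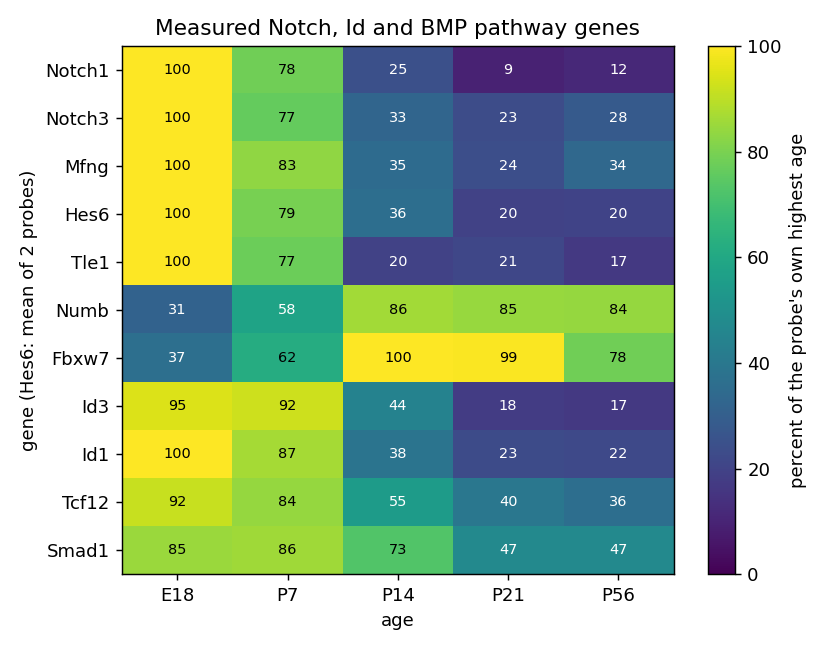
Percent of the probe's own highest age (colour, with the rounded value in each cell) for the 11 measured genes of the Notch pathway list and of the Id and BMP list (rows) at the 5 ages (columns); Hes6 is the mean of its 2 probes. Numb and Fbxw7 are lowest at E18, while the other 9 genes are higher at E18 than at P56.

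From a list of 27 genes of Id proteins, BMP signalling and E proteins 4 were measured: Id3, Id1, Tcf12 and Smad1. Of these, 3 fell at P56 against E18 and none rose, with a median of -1.76 (log2), where 52.8% of all named genes fell and 22.0% rose with a median of -1.07. With columns scaled to equal medians 2 of the 4 fell, where 16.4% of all probes did. Id3 is among the genes counted and was chosen on these values, so the other 3 are given on their own. Id1, the only other Id gene measured, stood at 100% at E18, 86.65% at P7, 38.43% at P14, 22.78% at P21 and 21.97% at P56. It fell 4.55-fold at P56 against E18. Its profile was 0.266 (RMS log2) from that of Id3, a distance under the median between 2 probes of 1 gene. Id1 was not among the 5 probes closest to Id3, which lay at 0.206 or less. The share of all probes within 0.266 of Id3 was not computed. Tcf12, which encodes an E protein that Id proteins bind, stood at 91.56% at E18, 84.25% at P7, 54.76% at P14, 39.66% at P21 and 36.17% at P56. Its fall was 2.53-fold. Smad1, which encodes a transducer of BMP signals, stood at 85.10% at E18, 85.80% at P7, 72.74% at P14, 47.07% at P21 and 46.92% at P56. It was 1.81-fold lower at P56 than at E18, within 2-fold. Relative to the median probe Id3 (-1.44) and Id1 (-1.12) were lower, Tcf12 (-0.27) slightly so, and Smad1 (0.21) was higher.

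Markers of several cell types moved with age in the same columns. Of 10 measured dividing cell markers (of 15 listed) all 10 fell at P56 against E18, led by Ccna2 and Cdk1; their median was 84.2% at E18, 99.2% at P7, 9.19% at P14, 4.96% at P21 and 5.66% at P56. At P7 their median thus stood above E18, where all 6 member probes stood below E18. Mcm3 alone of these markers was lower at P7 (80.2%) than at E18 (81.61%), and Id3 was only 2.32 points below its E18 value. At P14 each of the members was at a higher share of its own maximum than that median. Of the single dividing cell markers, Aurka (27.78%) and Pcna (25.05%) stood above Notch1 (24.59%) at P14, and the others below it. All 4 measured granule cell progenitor markers (of 12), led by Ccnd2 and Mycn, fell as well, as did 3 of 4 immature neuron markers (of 8), led by Sox11 and Sox4. The 3 measured vessel basement membrane genes (of 5), led by Nid1 and Col4a1, fell too, with medians of 95.9% at E18, 85.0% at P7, 39.3% at P14, 20.9% at P21 and 12.1% at P56. Of 6 meningeal and connective tissue genes (of 9), led by Serpinh1 and Col3a1, 5 fell, with medians of 100% at E18, 73.7% at P7, 29.7% at P14, 28.5% at P21 and 24.4% at P56.

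The RMS difference between each member and the median course of each list was computed as a description. Notch3 (0.182), Mfng (0.283), Hes6 probe 276 (0.229) and Hes6 probe 212 (0.392) were closest to the meningeal and connective tissue genes, and Id3 (0.25) and Notch1 (0.598) to the vessel basement membrane genes. For Notch1 the next were the progenitor list (0.658), the meningeal list (0.855) and the dividing cell list (0.92). For Notch3 the next were the choroid plexus list (0.432, 2 measured genes) and the vessel basement membrane list (0.565). The progenitor list was at 1.48 and the dividing cell list at 1.68. That progenitor median is over 4 genes, and a probe of 1 of them, Ccnd1, was among the 5 closest to Notch3 (0.152). None of the 12 listed mural cell genes (pericytes and smooth muscle), the cells Notch3 is known for, had a probe with 1 symbol. The part of any cell type in the members' values was not tested.

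**Figure D5:**
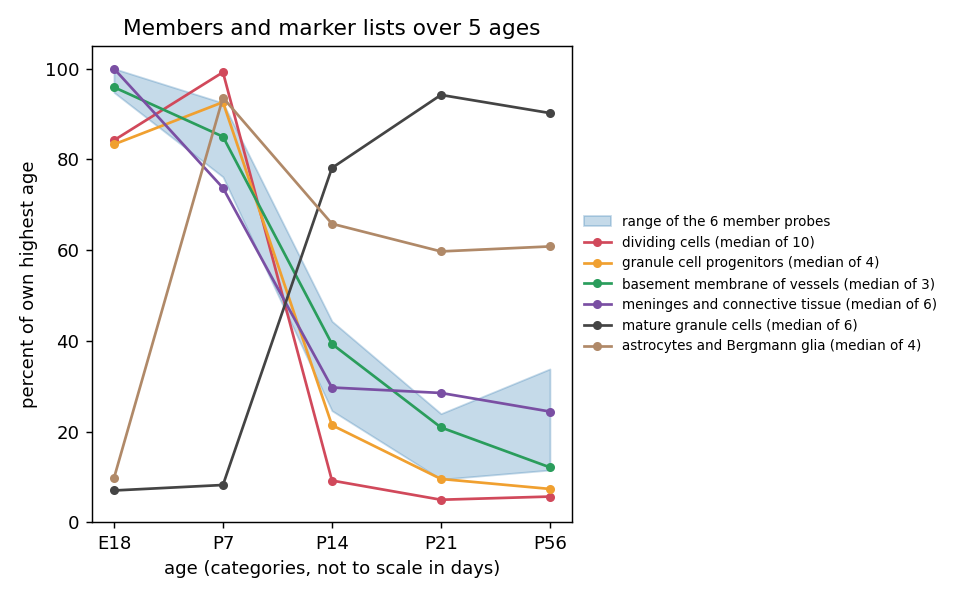
Median percent of own highest age (vertical axis) of 6 marker lists (coloured lines, with the number of measured genes in the legend) at the 5 ages (horizontal axis, as categories), with the range of the 6 member probes shaded. The dividing cell median is 99.2% at P7 and 9.19% at P14, above and below the shaded range, while the vessel basement membrane median lies inside it at all 5 ages.

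Of the other lists, all 6 measured mature granule cell genes (of 9; led by Gabra6 and Gabrd) and all 6 Purkinje cell genes (of 10; Pvalb and Atp2a3) rose at P56 against E18. So did 4 of 5 oligodendrocyte lineage genes (of 13; Mobp and Mag), with 1 lower, and 3 of 4 astrocyte and Bergmann glia genes (of 15; S100b highest). In the astrocyte list Tnc, the gene of the matrix protein tenascin C, fell, with 95.80% at E18, 88.41% at P7, 19.22% at P14, 14.35% at P21 and 9.49% at P56. Of 2 endothelial genes (of 11) Kdr fell and Slc2a1 did not pass, of 2 choroid plexus genes (of 5) Igfbp2 fell and Ttr did not pass, and of 2 microglial genes (of 9) Ctss rose and Laptm5 did not pass. None of the 4 erythroid genes had a probe with 1 symbol. Granule and Purkinje cell genes that define the labelled tissue are among the probes, but a value relative to a probe's own maximum does not show how strongly a gene was expressed.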

How the data were processed

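The deposited table holds 897 probes in 5 columns, 1 per age, each the mean signal of 2 array experiments per the labels. The values were read as percent of the maximum of each probe over the ages; all lie at or under 100 and 420 probes stand at exactly 100 at 1 age. This scaling is read from the deposited percent values and is not stated by the authors. The sources used here do not give the background correction, the normalization or how probes were chosen. Gene symbols came from the platform annotation, used where a probe has 1 symbol (787 probes, 773 genes).

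Differences are log2 ratios of 2 ages with values below 1% set to 1%, which touched 0 of the 30 member values; a probe fell or rose at 2-fold or more. The 5 most similar probes, the pathway lists and 14 marker lists (with the 2 most changed genes of each) followed stated rules, but the members and lists were chosen with earlier results of these data known. Alternatives were other floors, a pseudocount, column medians, quantile normalization, other thresholds, averaged probes and other ages. Likeness of profiles was the RMS difference of log2 percent over the 5 ages. The calculation was tested on simulated data with independent noise and no common shift between columns. That test therefore does not bear on the scale between columns. Python 3.11.15, pandas 2.3.3, numpy 2.4.6 and matplotlib 3.10.9 were used.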

Additional observations from a re-analysis of the deposited data

How the results depend on the processing

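At P56 against E18 between 4 and 6 of the 6 probes were lower under each alternative, and none was higher. The counts for single steps moved further with the settings, and no result on the steps is read from that. At P14 against P7, where 5 fell, 1 fell with columns scaled to equal medians, 2 with quantile normalization and 1 at a 3-fold threshold. At P21 against P14, where 3 fell, 1 fell with the 10th percentile as floor, and 0 with the 25th percentile as floor, with columns scaled to equal medians, with quantile normalization and at 3-fold. Of the Notch pathway list 3 in place of 5 fell at P56 against E18 with columns scaled to equal medians, where 16.4% of all probes fell. Of the 30 places among the most similar probes 19 were the same with percent values, 12 without P14, 11 without P21 and 14 without P56. The floors and the 3-fold threshold lower the counts of falls by construction. So does scaling to equal medians, which adds a constant to every probe's log2 difference. That constant was 0.576 at P14 against P7, 0.395 at P21 against P14 and 1.009 at P56 against E18. Quantile normalization moved the median of all probes by 0.454 at P14 against P7, 0.334 at P21 against P14 and 0.851 at P56 against E18. Its effect on the counts was not tested further. For P14 against P7 and P21 against P14 the shares of all probes under the alternatives were not computed. The other 106 of 119 alternative counts were within 1.5 times the reported count or equal to it. Many of these were 0 against 0, such as the number of members that rose, and say little about stability. Of 180 alternative member differences 115 moved and 65 stayed the same. None changed sign where the reported one was past 2-fold. Smaller ones could, as Notch3 at P21 against P14 did with quantile normalization, from -0.495 to 0.039 (log2). Signal over background is unknown, which leaves the lowest values, such as Notch1 at P21, least certain. No paired analysis was possible because each age has a single column.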
